A study of Homo sapiens with 8 samples.

Results

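The TNF superfamily genes named TNFRSF (receptors) or TNFSF (ligands) were followed in HEL cells, a human erythroleukaemia line that carries an activated JAK2 kinase. Members were all genes whose symbol starts with TNFRSF or TNFSF and that have a probe set annotated to that gene alone. This gave 28 of 17958 genes, of which 19 are receptors and 9 are ligands. For each gene the probe set with the highest mean stood for it, and 27 of the 28 had a single such probe set. TNFRSF25, TNFRSF6B, TNFSF12 and TNFSF13 were measured only by probe sets shared with other genes and are not analysed here.

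The cells had been kept for 48 h with GRN163L plus LY2784544 (called the combination here), with 0.5 µM LY2784544, with 20 µM GRN163L, or with DMSO alone as control. LY2784544 is an inhibitor of the JAK2 kinase, and GRN163L is a lipid-linked oligonucleotide that inhibits telomerase. The labels do not restate the doses for the combination. There were 2 experiments with 1 culture of each treatment in each, so every group holds 2 arrays of 1 cell line. The 8 arrays report log2 RMA signals (a background-corrected, quantile-normalized signal for each probe set).

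Ligands of this superfamily are mostly trimeric membrane proteins, some of them shed, and they cluster their receptors on the same or a neighbouring cell. Receptors with a death domain, such as those for TNF and TRAIL, can recruit FADD and caspase-8 or, through TRADD and TRAF adaptors, activate NF-kB. Receptors without one, such as CD137, OX40 and the BAFF receptor, bind TRAF proteins directly and are best known as costimulatory or survival receptors of lymphocytes. Many members are themselves induced by NF-kB, AP-1 or cytokine signals.

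Of the members tested, TNFRSF9 (CD137) was the only one called against control in the fit of group means, and its signal was lower with the combination and with LY2784544. Its ligand gene TNFSF9 and the TNF receptor gene TNFRSF1A were not called in any comparison. With the experiment taken into account as a block, the TRAIL receptor genes TNFRSF10A and TNFRSF10D were also lower and TNFRSF14 (HVEM) was higher with the combination than in control. Most other members were near or below background or differed little between groups.

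The array table has no detection call, so background was set on each array as the 95th percentile of 283 olfactory receptor genes, a class that is mostly silent in blood cells. This level was 5.009 and 4.538 for the combination, 4.799 and 4.556 for LY2784544, 4.418 and 4.466 for GRN163L, and 4.405 and 4.278 for control (experiments 1 and 2, log2 scale). It was thus highest on the combination and LY2784544 arrays, those of experiment 1 above all. The median of the tested genes differed from that of the control arrays by -0.175 for the combination, -0.1025 for LY2784544 and 0.015 for GRN163L. The labelled lineage was checked with markers: 6 of 6 measured erythroid genes and 5 of 5 measured megakaryocyte genes were above background in control, against 0 of 3 B cell genes and 0 of 3 dendritic cell genes. Of 6 genes of T and NK cells, CD2, CD5 and NCAM1 were above background and the CD3 genes were not above it on both arrays, and of 4 monocyte genes only LYZ was.

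In control cells 15 of the 28 members were above background on both arrays, 13 receptors and 2 ligands, against 68.0% of all 17958 genes. The receptors were TNFRSF1A, TNFRSF1B, TNFRSF4, TNFRSF8, TNFRSF9, TNFRSF10A, TNFRSF10D, TNFRSF12A, TNFRSF13B, TNFRSF13C, TNFRSF14, TNFRSF18 and TNFRSF21, and the ligands were TNFSF9 and TNFSF10. Just inside the rule lay TNFRSF21, a death-domain receptor, at 4.49 and 4.53 in control. Just outside it lay TNFSF14 (LIGHT, the ligand of HVEM) at 4.28 and 4.63, and TNFRSF10C, a decoy receptor for TRAIL, at 4.23 and 4.34, each above background on 1 control array. The other 11 members were at or below background on both control arrays. They included TNFRSF10B, a death receptor for TRAIL, at 3.56 and 3.70, TNFRSF11A (RANK) at 3.82 and 4.16, and TNFSF11 (RANK ligand) at 3.08 and 3.21. Signals of different probe sets are not comparable as amounts, so the order of genes in the plot of signals by array shows only where each stands relative to background.

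**Figure D1:**
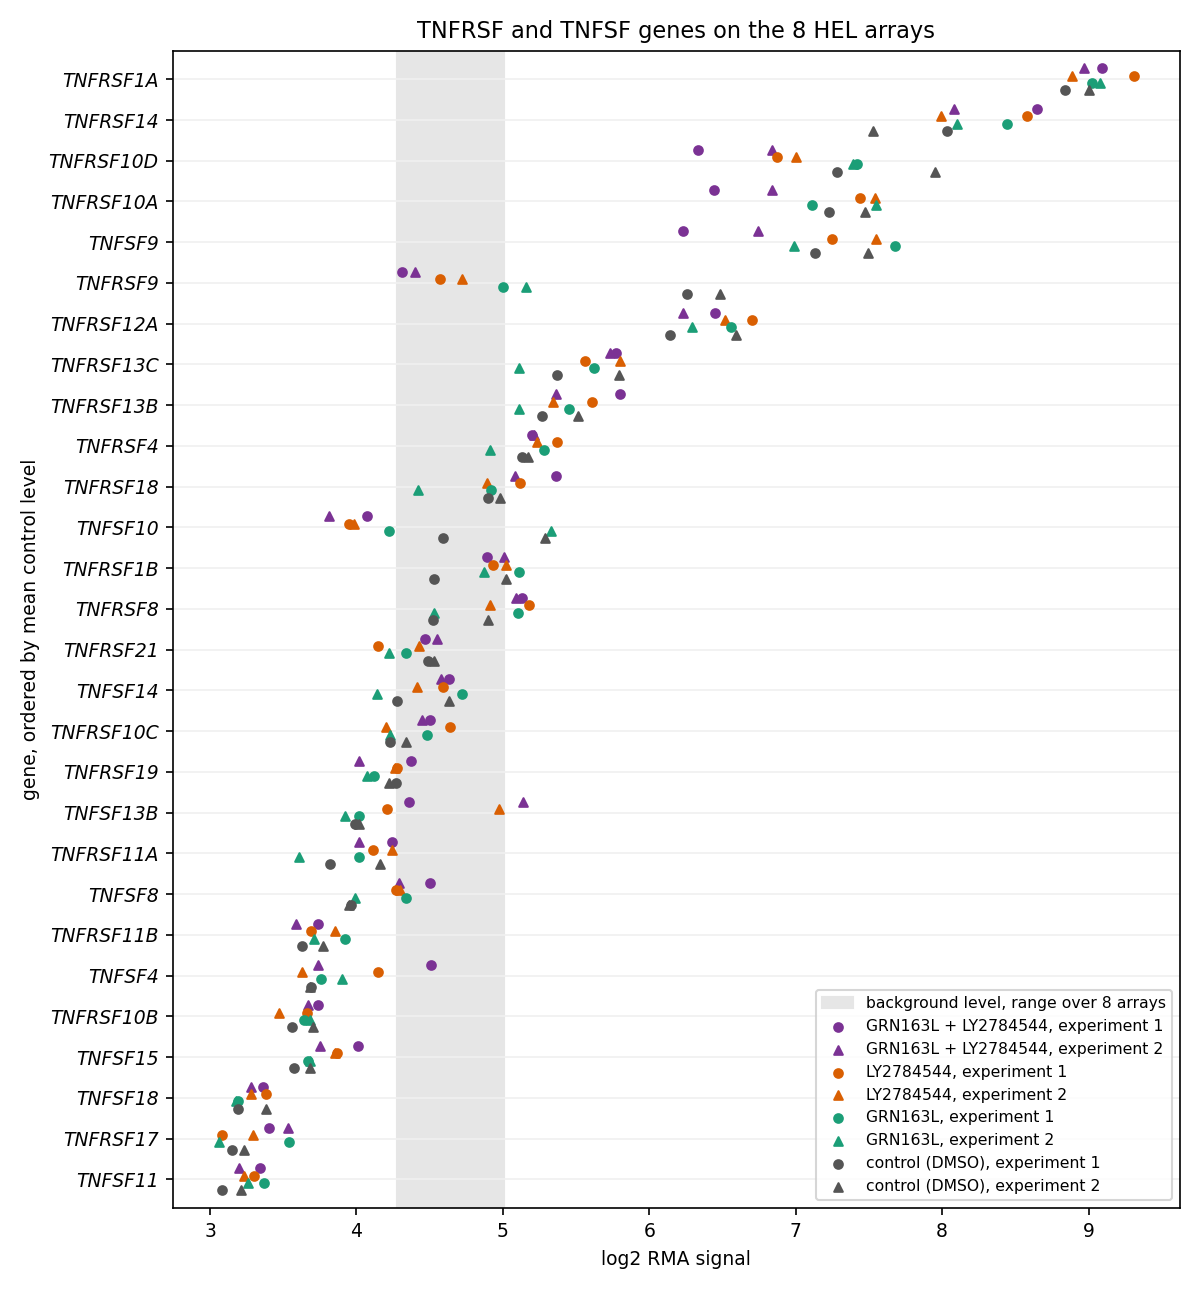
Log2 RMA signal (x axis) of the 28 TNFRSF and TNFSF genes (rows, by mean control signal) on each of the 8 arrays; colour gives the treatment, circles experiment 1 and triangles experiment 2, and the grey band spans the background levels of the 8 arrays, 4.278 to 5.009. TNFRSF9 is the row in which both control points stand over 1 log2 unit above all 6 treated points.

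On both arrays of a group, 11 members were above background for the combination, 12 for LY2784544 and 12 for GRN163L, and 10 were above it on all 8 arrays. Of all genes 61.2%, 63.3% and 66.0% were above it by the same rule in these groups, also fewer than in control. TNFRSF9 and TNFSF10 were below background on both combination arrays. TNFRSF21 was below it on both LY2784544 and both GRN163L arrays, although its signals there, 4.15 to 4.43, were close to 4.49 and 4.53 in control. Background was higher on each treated array than on either control array, and its part in these counts was not tested. Over the 8 arrays the signal of 21 members spanned less than 1 log2 unit.

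Each difference was tested with limma (a linear model with moderated variances) over all genes with a mean signal of at least 4.37, which 17 of the 28 members reached, 14 receptors and 3 ligands. The 12570 genes tested shared a Benjamini-Hochberg adjustment, and a member with an adjusted p below 0.05 was called. In the combination against control 1 of 17 members was called, and it fell, where 3.47% of all genes tested were called and 2.71% fell. In LY2784544 against control 1 member was called, and it fell, where 1.27% of all genes were called and 0.883% fell. With arrays set to a common median, the genes that fell were 1.46% of those tested for the combination and 0.708% for LY2784544. The member that fell was TNFRSF9 in both comparisons. In GRN163L against control 0 members were called, as were 0% of all genes, and 1 member, TNFRSF9, and 595 genes in all had an unadjusted p below 0.05. By limma 0 members were called in the combination against LY2784544 (0.31% of all genes called, 2 members at an unadjusted p below 0.05), in the combination against GRN163L (0.541%, 6 members) and in LY2784544 against GRN163L (1.05%, 2 members). In the same order, 13.5%, 14.4% and 14.8% of all genes tested had an unadjusted p below 0.05, against 11.8%, 35.3% and 11.8% of the members. The interaction (combination minus LY2784544, less GRN163L minus control) called 0 members and 0% of genes, with 3 members and 3.69% of all genes at an unadjusted p below 0.05. All comparisons with control share the same 2 control arrays.

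TNFRSF9 encodes CD137, a costimulatory receptor of activated T and NK cells that signals through TRAF1 and TRAF2. Its signal was 4.31 and 4.40 with the combination, 4.57 and 4.72 with LY2784544, 5.0 and 5.16 with GRN163L, against 6.26 and 6.48 in control, in experiments 1 and 2. All 6 treated values lay below both control values, and no 2 of the 4 groups overlapped. The group means were 4.355 ± 0.064 with the combination, 4.645 ± 0.106 with LY2784544, 5.08 ± 0.11 with GRN163L and 6.37 ± 0.16 in control (SD, n = 2 each).

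With LY2784544 TNFRSF9 fell by 1.725 on the log2 scale against control (SE 0.16, 95% interval -2.09 to -1.36, limma adjusted p = 0.00371). The difference was -1.69 in experiment 1 and -1.76 in experiment 2, and 8 of the 12570 genes had a smaller p. The adjusted p was 0.0529 without the control array of experiment 2. With LY2784544 only 1 of the 2 arrays was above background, and the mean of 4.645 lay below the mean background level of 4.6775, so no fold is given. With the combination TNFRSF9 fell by 2.015 (SE 0.16, 95% interval -2.38 to -1.65, limma adjusted p = 0.00119), with -1.95 in experiment 1 and -2.08 in experiment 2. Since neither combination array was above background, the measured levels give only a bound, at least 3.02-fold lower than control.

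GRN163L against control gave -1.29 for TNFRSF9 (SE 0.16, 95% interval -1.65 to -0.925), which was not called (limma adjusted p = 0.201). The estimate was 2.45-fold lower, -1.26 in experiment 1 and -1.32 in experiment 2, and no gene had a smaller p in this comparison. LY2784544 minus GRN163L was -0.435 (95% interval -0.80 to -0.070, adjusted p = 0.252) and the combination minus LY2784544 -0.29 (95% interval -0.655 to 0.075, adjusted p = 0.477) by limma. In the combination minus LY2784544 both means lay below background, so that their order there cannot be read. LY2784544 minus GRN163L rests on the same LY2784544 mean, with only 1 LY2784544 array above background, so its size is uncertain too. The combination minus GRN163L was -0.725 (limma adjusted p = 0.106), and it passed in the fit that takes the experiment as a blocking factor (adjusted p = 0.0408), with the combination again known only as a bound. The interaction was 1.0 (95% interval 0.484 to 1.52, limma adjusted p = 0.675), with the same value in either experiment. It was not called, and it rests on the same bound.

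In bulk RNA, fewer cells with a transcript and less transcript per cell cannot be told apart. Among the genes of T and NK cells, the summed linear signal of the 6 measured genes was 201 and 232 with the combination, 162 and 142 with LY2784544, 177 and 171 with GRN163L, against 226 and 227 in control. The sum adds signals of different probe sets, which are not comparable as amounts, and does not measure a number of cells. In control CD2 and NCAM1 had the highest signals of the 6. NCAM1, an adhesion molecule of NK cells, was at 4.94 and 5.33 with the combination, 4.80 and 4.62 with LY2784544, 5.11 and 5.06 with GRN163L, against 6.20 and 6.17 in control. It was lower than control on all 6 treated arrays, like TNFRSF9, but the genes of the list did not all move that way. NCAM1 lay below background (5.009) on the combination array of experiment 1. Its LY2784544 values stood close to the background of their arrays (4.799 and 4.556). CD2 was at 6.50 and 7.01 with the combination, 6.06 and 5.61 with LY2784544, 6.36 and 6.33 with GRN163L, against 6.47 and 6.46 in control, so that it lay above control with the combination and below it with either agent alone. CD3E and CD3G, which define T cells, were below background on all 8 arrays, at 3.24 to 3.72 and 3.49 to 3.94. The third CD3 gene, CD3D, was at 4.91 and 4.18 with the combination and 4.19 and 4.62 with LY2784544. With GRN163L it was at 4.07 and 4.09, against 4.25 and 4.37 in control. CD3D exceeded background only on the LY2784544 and control arrays of experiment 2. CD5 exceeded it on both control arrays (4.59 and 4.51) and on no treated array (4.25 to 4.60). The part of these genes in the result was not tested. The background level was highest, 5.009, on the combination array of experiment 1, where TNFRSF9 was lowest. The other arrays did not all keep that order. Background was 4.538 on the combination array of experiment 2 (TNFRSF9 at 4.40) and 4.799 on the LY2784544 array of experiment 1 (4.57). A part of background in the TNFRSF9 signal was not tested.

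TNFSF9 encodes the ligand of CD137, and none of its differences from control was called. Its signal was 6.23 and 6.74 with the combination, 7.25 and 7.55 with LY2784544, 7.68 and 6.99 with GRN163L, against 7.13 and 7.49 in control. Both combination arrays and the GRN163L array of experiment 2 lay below both control arrays. Against control the combination gave -0.825 (SE 0.27, limma adjusted p = 0.124), LY2784544 minus control 0.09 (95% interval -0.533 to 0.713) and GRN163L minus control 0.025 (95% interval -0.598 to 0.648). The interaction was -0.94 (95% interval -1.82 to -0.059, limma adjusted p = 0.999), also not called.

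The promoters of this receptor, its ligand and TNFSF10, the TRAIL gene, are shown because TNFRSF9 carried the called change while that of its ligand was not called, and TNFSF10 was the other member above background in control that was below it on both combination arrays. Each runs from 250 bases before to 50 bases after the RefSeq gene start (GRCh38.p14) and is written in the direction of the gene. Capitals mark matches on either strand to the NF-kB letters (GGG and CC with any 5 bases between them), TTCNNNGAA (STAT) or TGANTCA (AP-1).
TNFRSF9, chr1:7940790-7941089, minus strand: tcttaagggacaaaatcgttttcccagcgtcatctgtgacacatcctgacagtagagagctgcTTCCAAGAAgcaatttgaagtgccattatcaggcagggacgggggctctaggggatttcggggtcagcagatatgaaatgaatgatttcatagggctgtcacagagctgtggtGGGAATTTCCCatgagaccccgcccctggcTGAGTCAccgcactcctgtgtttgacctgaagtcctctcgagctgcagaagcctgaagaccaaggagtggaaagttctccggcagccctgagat
TNFSF9, chr19:6530776-6531075, plus strand: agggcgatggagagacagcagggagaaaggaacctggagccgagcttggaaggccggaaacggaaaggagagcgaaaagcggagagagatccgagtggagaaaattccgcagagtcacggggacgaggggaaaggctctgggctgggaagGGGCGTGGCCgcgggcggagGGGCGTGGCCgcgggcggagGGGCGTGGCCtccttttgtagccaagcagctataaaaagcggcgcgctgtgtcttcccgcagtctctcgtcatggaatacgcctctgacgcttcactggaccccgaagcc
TNFSF10, chr3:172523381-172523680, minus strand: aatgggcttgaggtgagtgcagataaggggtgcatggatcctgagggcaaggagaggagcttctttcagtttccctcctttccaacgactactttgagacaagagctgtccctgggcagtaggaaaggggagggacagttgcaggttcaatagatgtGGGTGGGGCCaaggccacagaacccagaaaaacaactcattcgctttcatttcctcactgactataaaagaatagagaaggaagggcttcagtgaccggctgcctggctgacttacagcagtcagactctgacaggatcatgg

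The TNFRSF9 window held the NF-kB letters on both strands in overlapping matches that begin at positions -74 and -73 relative to the start, the STAT letters at -187 and the AP-1 letters at -44. The TNFSF9 window held the NF-kB letters 3 times, at -100, -80 and -60, and the TNFSF10 window held them at -93. Of 27305 promoters of this length, 58.0% held the NF-kB letters, 7.88% the STAT letters, 7.76% the AP-1 letters and 0.322% all 3. Of the 18 members with a sequence in that table, 11 held the NF-kB letters, 2 the STAT letters (TNFRSF9 and TNFSF11), 4 the AP-1 letters and 1 all 3. These matches describe the letters and do not show that a factor binds there.

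**Figure D2:**
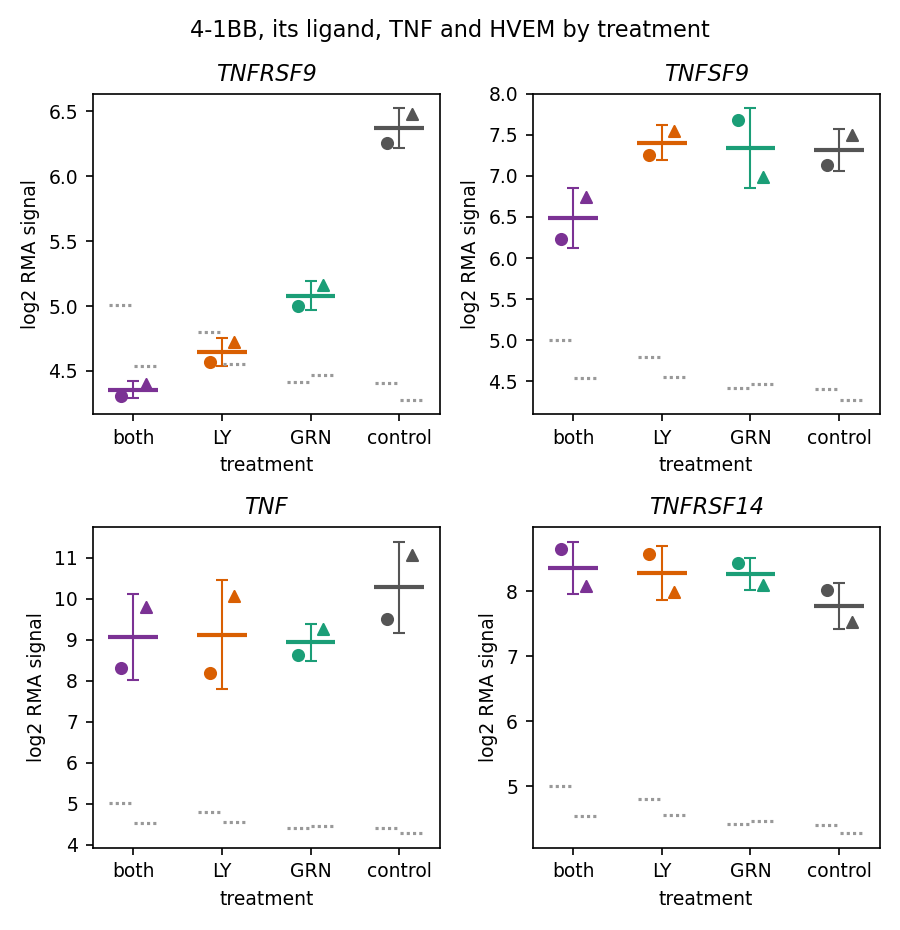
Log2 RMA signal (y axis, a separate scale in each panel) of TNFRSF9, TNFSF9, TNF and TNFRSF14 by treatment, with both meaning the combination; circles are experiment 1, triangles experiment 2, bars the mean ± SD of 2 arrays and dotted lines each array's background level. TNFRSF9 was at 6.26 and 6.48 in control and at 5.16 or lower on all treated arrays, while TNF was lower in experiment 1 than in experiment 2 in every group.

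TRAIL, encoded by TNFSF10, binds the death receptors encoded by TNFRSF10A and TNFRSF10B and the decoy receptors encoded by TNFRSF10C and TNFRSF10D. TNFSF10 was at 4.07 and 3.81 with the combination, 3.95 and 3.98 with LY2784544, 4.22 and 5.33 with GRN163L, against 4.59 and 5.29 in control. All 4 arrays with LY2784544, alone or combined, lay below background and below both control arrays, while the 2 GRN163L arrays were far apart. Against control the combination gave -1.0 (SE 0.35, limma adjusted p = 0.138) and LY2784544 minus control -0.975 (SE 0.35, limma adjusted p = 0.269), neither called. Averaged over the experiments, the control mean of TNFSF10 stood 1.12-fold above the background level of the combination arrays and 1.20-fold above that of LY2784544. In experiment 1 the control signal, 4.59, lay below the background of the combination (5.009) and LY2784544 (4.799) arrays. That experiment gives no bound, so no fold change is read from these levels.

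TNFRSF10D was at 6.33 and 6.84 with the combination, 6.87 and 7.0 with LY2784544, 7.42 and 7.39 with GRN163L, against 7.28 and 7.95 in control. The combination and LY2784544 arrays lay below both control arrays. Its estimate for the combination minus control was -1.03 (SE 0.25, 95% interval -1.60 to -0.465, limma adjusted p = 0.0596), with -0.95 in experiment 1 and -1.11 in experiment 2. It passed in the blocked fit (adjusted p = 0.0183) and without the combination array of experiment 2, where it was -1.285 (adjusted p = 0.0399). LY2784544 minus control was -0.68 (limma adjusted p = 0.278) and GRN163L minus control -0.21 (limma adjusted p = 0.995).

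TNFRSF10A was at 6.44 and 6.84 with the combination, 7.44 and 7.54 with LY2784544, 7.11 and 7.55 with GRN163L, against 7.23 and 7.47 in control. Only the combination arrays stood below those of all other groups. The combination minus control was -0.71 (SE 0.21, limma adjusted p = 0.0961) and the combination minus LY2784544 -0.85 (SE 0.21, limma adjusted p = 0.142). Both passed in the blocked fit (adjusted p = 0.0258 and 0.0398), while the interaction, -0.83 (95% interval -1.51 to -0.155), was not called with it or without it (limma adjusted p = 0.458 and 0.999). LY2784544 minus control was 0.14 (95% interval -0.337 to 0.617) and GRN163L minus control -0.02 (95% interval -0.497 to 0.457).

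In the blocked fit of the combination against control 4 of 17 members were called, where 11% of all genes tested were called. Of these, 3 were lower (TNFRSF9, TNFRSF10A and TNFRSF10D), against 8.15% of all genes, and 1 was higher (TNFRSF14), against 2.84%. In the combination against LY2784544 that fit called 1 member, TNFRSF10A, which was lower, where 1.6% of genes were called and 1.03% were lower. In the combination against GRN163L it called 1 member, TNFRSF9, where 1.69% of genes were called and 1.44% were lower. For LY2784544 it called 1 member against control (TNFRSF9, with 2.74% of genes called) and 0 against GRN163L (3.51% of genes called). TNFRSF10B stayed below background, with a range of 3.47 to 3.74 over the 8 arrays, and TNFRSF10C ranged over 4.20 to 4.64 and was above background on 2 of the 8.

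CFLAR encodes c-FLIP, which blocks caspase-8 at death receptors. It was at 8.47 and 7.98 with the combination, 7.57 and 7.08 with LY2784544, 7.51 and 7.99 with GRN163L, against 7.01 and 7.38 in control. The combination arrays lay above both control arrays, and those of GRN163L did too. Its estimate for the combination minus control, 1.03 (SE 0.26, limma adjusted p = 0.0686), passed in the blocked fit (adjusted p = 0.0436), with 1.46 in experiment 1 and 0.60 in experiment 2.

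**Figure D3:**
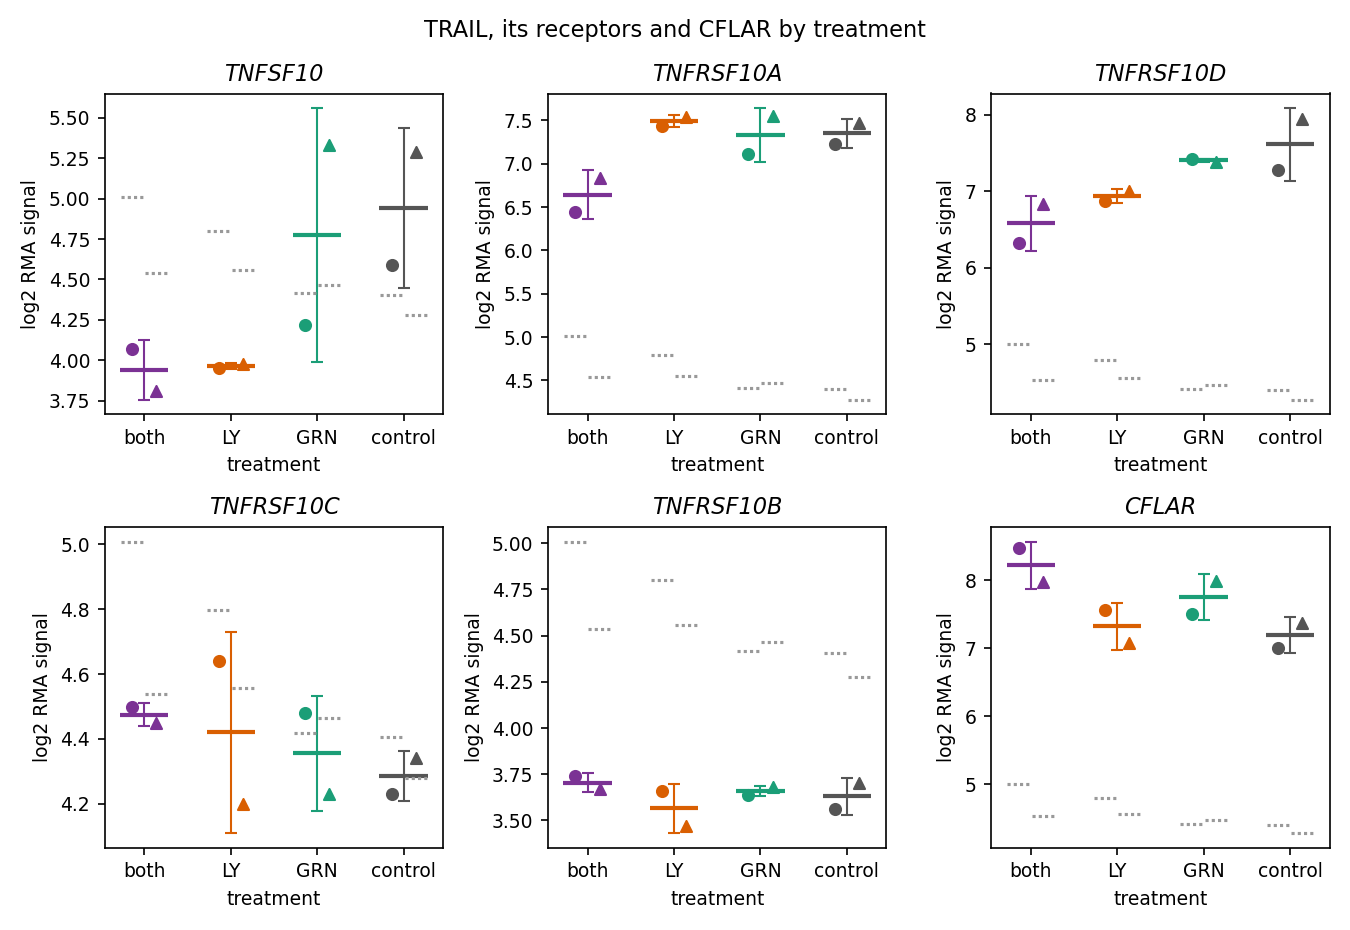
Log2 RMA signal (y axis, a separate scale in each panel) of TNFSF10, its 4 receptor genes and CFLAR by treatment, with both meaning the combination; circles are experiment 1, triangles experiment 2, bars the mean ± SD of 2 arrays and dotted lines each array's background level. The TNFRSF10A values with the combination, 6.44 and 6.84, lie below those of the other 3 groups, and TNFRSF10B stays below background throughout.

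TNFRSF1A, the widely expressed death-domain receptor for TNF, was at 9.09 and 8.97 with the combination, 9.31 and 8.89 with LY2784544, 9.02 and 9.08 with GRN163L, against 8.84 and 9.0 in control. The combination and LY2784544 values overlapped those of control, with differences of 0.11 (95% interval -0.299 to 0.519) and 0.18 (95% interval -0.229 to 0.589). Both GRN163L values lay above those of control, with a difference of 0.13 (95% interval -0.279 to 0.539). The second TNF receptor, TNFRSF1B, ranged from 4.53 to 5.11 over the 8 arrays, close to background.

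TNF itself, whose symbol falls outside the family prefix, was at 8.32 and 9.81 with the combination, 8.18 and 10.06 with LY2784544, 8.62 and 9.25 with GRN163L, against 9.50 and 11.07 in control. Experiment 1 was lower than experiment 2 in each group, and the combination and LY2784544 values overlapped those of control, while both GRN163L values lay below them. Within experiments the combination minus control was -1.18 and -1.26, LY2784544 minus control -1.32 and -1.01, and GRN163L minus control -0.88 and -1.82. For the combination the mean difference, -1.22, was not called by limma (adjusted p = 0.343) and passed in the blocked fit (adjusted p = 0.0281). In that blocked fit 8.15% of all genes tested were called lower. With the block LY2784544 minus control had an adjusted p of 0.0600 and GRN163L minus control one of 0.239.

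TNFRSF14 encodes HVEM, the receptor for LIGHT and a ligand of the inhibitory receptor BTLA. It was at 8.65 and 8.08 with the combination, 8.58 and 7.99 with LY2784544, 8.44 and 8.10 with GRN163L, against 8.03 and 7.53 in control. Each treated array lay above the control array of its own experiment, and over both experiments only the LY2784544 values overlapped those of control. Its estimate for the combination minus control was 0.585 (SE 0.28, limma adjusted p = 0.254), 0.62 and 0.55 in experiments 1 and 2, and it passed in the blocked fit (adjusted p = 0.0374). Without the combination array of experiment 1 it was 0.30, and without the control array of experiment 2 it was 0.335. LY2784544 minus control was 0.505 and GRN163L minus control 0.49, neither called in either fit.

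Among the remaining lymphocyte receptors, TNFRSF8 (CD30) was at 5.13 and 5.09 with the combination, 5.18 and 4.91 with LY2784544, 5.10 and 4.53 with GRN163L, against 4.52 and 4.90 in control. The combination and LY2784544 arrays lay above both control arrays, with a difference of 0.40 for the combination (SE 0.23, limma adjusted p = 0.322). TNFRSF18 (GITR) was at 5.36 and 5.08 with the combination, 5.12 and 4.89 with LY2784544, 4.92 and 4.42 with GRN163L, against 4.90 and 4.98 in control, with a difference of 0.28 for the combination (limma adjusted p = 0.442). Both combination values lay above those of control, and the GRN163L values overlapped them. TNFRSF4 (OX40), TNFRSF13B (TACI), TNFRSF13C (the BAFF receptor), TNFRSF12A (the receptor for TWEAK), TNFRSF1B, TNFRSF10C, TNFRSF21 and TNFSF14 differed from control by -0.025 to 0.19 with the combination, by -0.22 to 0.245 with LY2784544 and by -0.23 to 0.215 with GRN163L. None of these was called in any comparison.

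**Figure D4:**
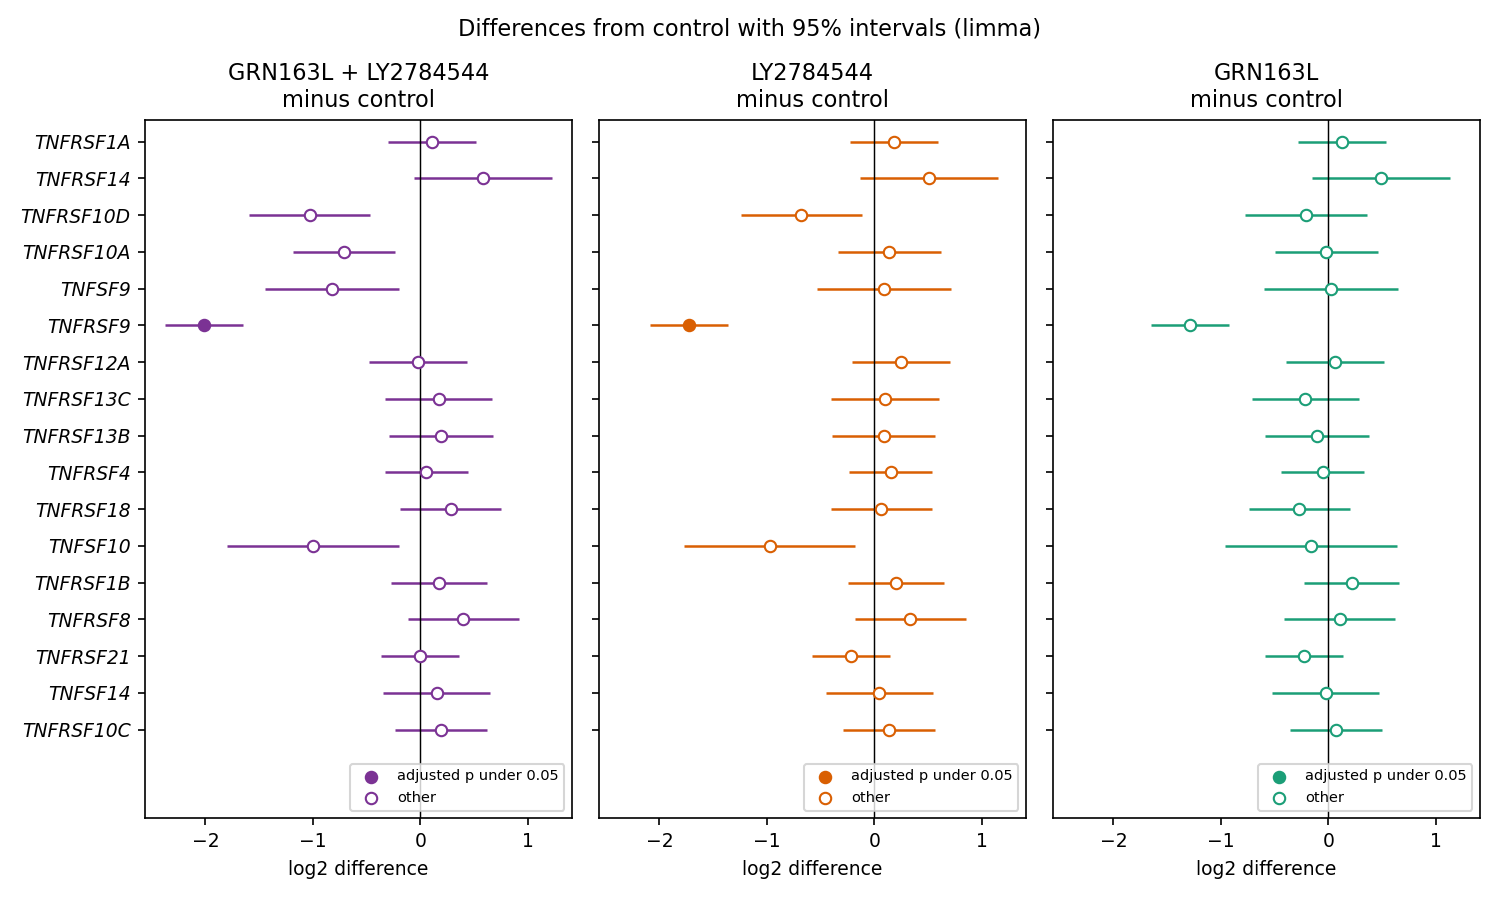
Log2 difference from control (x axis) of the 17 tested members (rows) with the combination, LY2784544 and GRN163L, with 95% intervals from limma; filled points passed an adjusted p of 0.05. The filled points are TNFRSF9 with the combination (-2.015) and with LY2784544 (-1.725).

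The median difference of the 17 members was 0.11 with the combination, 0.10 with LY2784544 and -0.025 with GRN163L, against -0.065, -0.04 and 0.005 over all genes tested. The sign of the members' median differed between experiments 1 and 2. It was 0.27 and -0.05 with the combination, 0.24 and -0.09 with LY2784544, and 0.18 and -0.31 with GRN163L. Over all genes tested the medians were -0.1 and -0.04, -0.06 and -0.03, and 0.01 and 0. The 17 passed the filter on their mean over all arrays, so they are not all members. The 11 members below the filter were fitted with no filter on dim genes, and 0 of them was called in any of the 7 contrasts by limma, with 2 at an unadjusted p below 0.05 in the combination against control. These were TNFSF8 (CD30 ligand) at 0.44 (adjusted p = 0.176) and TNFSF13B at 0.745 (adjusted p = 0.214). TNFSF13B encodes BAFF, a B cell survival factor, and was at 4.36 and 5.14 with the combination, 4.21 and 4.97 with LY2784544, 4.02 and 3.92 with GRN163L, against 3.99 and 4.02 in control. It exceeded background only on the combination and LY2784544 arrays of experiment 2.

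Genes of the pathway outside the prefix were grouped in 4 lists. Of 9 tested family members under other symbols, which include TNF, FAS, CD40 and LTBR, 0 were called by limma in any comparison with control. With LY2784544 1 of them, CD40, had an unadjusted p below 0.05 (11.1%, against 13.2% of all genes tested). The medians of the 9 were -0.23 with the combination, 0.05 with LY2784544 and 0.015 with GRN163L. With arrays set to a common median they were -0.055 with the combination and 0.1525 with LY2784544, and 5 rather than 8 of the 9 estimates were below 0 with the combination. CD40, a costimulatory receptor of antigen-presenting cells, was at 5.71 and 6.38 with the combination, 5.46 and 5.65 with LY2784544, 6.23 and 6.58 with GRN163L, against 6.17 and 6.38 in control. Its LY2784544 values lay below those of all other groups, and LY2784544 minus GRN163L, -0.85, passed in the blocked fit (limma adjusted p = 0.0337) and not without the block (adjusted p = 0.143). CD40 was the 1 gene of the 9 called in that blocked fit, where 3.51% of all genes tested were called and 2.63% were lower. The smallest p with GRN163L belonged to TNF and LTA (lymphotoxin alpha, -0.565), and NGFR followed TNF with the combination (-0.255). LTBR, the lymphotoxin receptor, differed from control by no more than 0.105 in any group.

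Of 19 TRAF adaptors and proximal signalling genes 0 were called by limma in any comparison with control, with 7, 2 and 0 at an unadjusted p below 0.05 for the combination, LY2784544 and GRN163L and medians of -0.135, -0.075 and -0.075. Of all genes tested 23.1%, 13.2% and 4.73% had such a p. With arrays set to a common median the medians for the combination and LY2784544 turned to 0.04 and 0.0275. In the blocked fit of the combination against control CFLAR was higher and TRAF5 (-0.83, limma adjusted p = 0.0465) and TRAF1 (-0.595, limma adjusted p = 0.0406) were lower. That is 1 higher and 2 lower of 19, where 2.84% of all genes tested were higher and 8.15% lower. TRAF5 was above background on only 1 of the 2 combination arrays (4.28 and 4.77, against 5.24 and 5.47 in control). TRAF1, an adaptor of CD137 that NF-kB induces, was at 4.52 and 4.09 with the combination, 4.45 and 4.17 with LY2784544, 4.50 and 4.45 with GRN163L, against 5.04 and 4.76 in control. All 6 treated TRAF1 values lay below both control values, but it was below background on every combination and LY2784544 array, so those differences rest on a level that is only a bound. With LY2784544 the smallest p belonged to TRAF1 (-0.59) and TRAF3 (-0.49, limma adjusted p = 0.273), and with GRN163L to TRAF1 (-0.425) and CFLAR (0.555).

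Of 13 inducible TNF and NF-kB response genes 1 fell with the combination by limma, where 2.71% of all genes tested fell. With LY2784544 and GRN163L 0 were called, where 1.27% and 0% of all genes were. For the combination, LY2784544 and GRN163L, 4, 4 and 1 had an unadjusted p below 0.05. These are 30.8%, 30.8% and 7.69% of the list, against 23.1%, 13.2% and 4.73% of all genes tested. Their medians were -0.27 with the combination, -0.36 with LY2784544 and -0.21 with GRN163L, and 10 of the 13 estimates were below 0 in each, where 57.3%, 56.1% and 49% of all genes tested were below 0. With arrays set to a common median 8, 9 and 10 estimates were below 0 for the combination, LY2784544 and GRN163L, and the medians were -0.095, -0.2575 and -0.225. In the blocked fit NFKBIE (-0.95, limma adjusted p = 0.0283) and IER3 (-1.16, limma adjusted p = 0.0383) were also lower with the combination. That made 3 of the 13 lower, where 8.15% of all genes tested were. With LY2784544 against GRN163L, CXCL8 (1.725, limma adjusted p = 0.0242) was higher in that fit. TNFAIP3 (-1.335, limma adjusted p = 0.0111, against 0.0971 without the block) was lower there. In that comparison 3.51% of all genes were called and 2.63% were lower. The gene that fell was TNIP1, which encodes a binding partner of the NF-kB inhibitor A20, at 6.86 and 6.91 with the combination, 7.72 and 7.59 with LY2784544, 7.88 and 7.37 with GRN163L, against 8.01 and 8.02 in control. Its combination values lay below those of all other groups (-1.13, SE 0.19, limma adjusted p = 0.0217). TNFAIP3, which encodes A20, was -1.10 with LY2784544 (limma adjusted p = 0.171). It passed in the blocked fit (adjusted p = 0.0177), where 1.96% of all genes tested were lower. Its signal was 8.47 and 8.14 with the combination, 7.81 and 7.47 with LY2784544, 9.40 and 8.55 with GRN163L, against 9.10 and 8.38 in control, so that the LY2784544 values lay below those of all other groups. With the combination it was -0.435 (limma adjusted p = 0.448). Of 6 tested genes of ectodomain and ligand processing, among them the TNF-shedding protease ADAM17, 0 were called by limma (2 at an unadjusted p below 0.05 with the combination, 0 with either agent alone), and their medians lay between -0.155 and -0.005 in the comparisons with control (0.02 for the combination with arrays set to a common median). The smallest p belonged to SPPL2B (-0.39) and SPPL2A (0.50), intramembrane proteases, with the combination, to FURIN (0.215) and ADAM10 (-0.20) with LY2784544, and to ADAM10 (0.15) and SPPL2A (0.135) with GRN163L. RHBDF2, also measured in this list, had a mean below the filter and was not tested. It was at 4.10 and 4.06 with the combination and 3.78 and 3.93 with LY2784544, all below background. With GRN163L it was at 4.47 and 4.26, and in control at 4.70 and 4.84, above background on both control arrays.

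**Figure D5:**
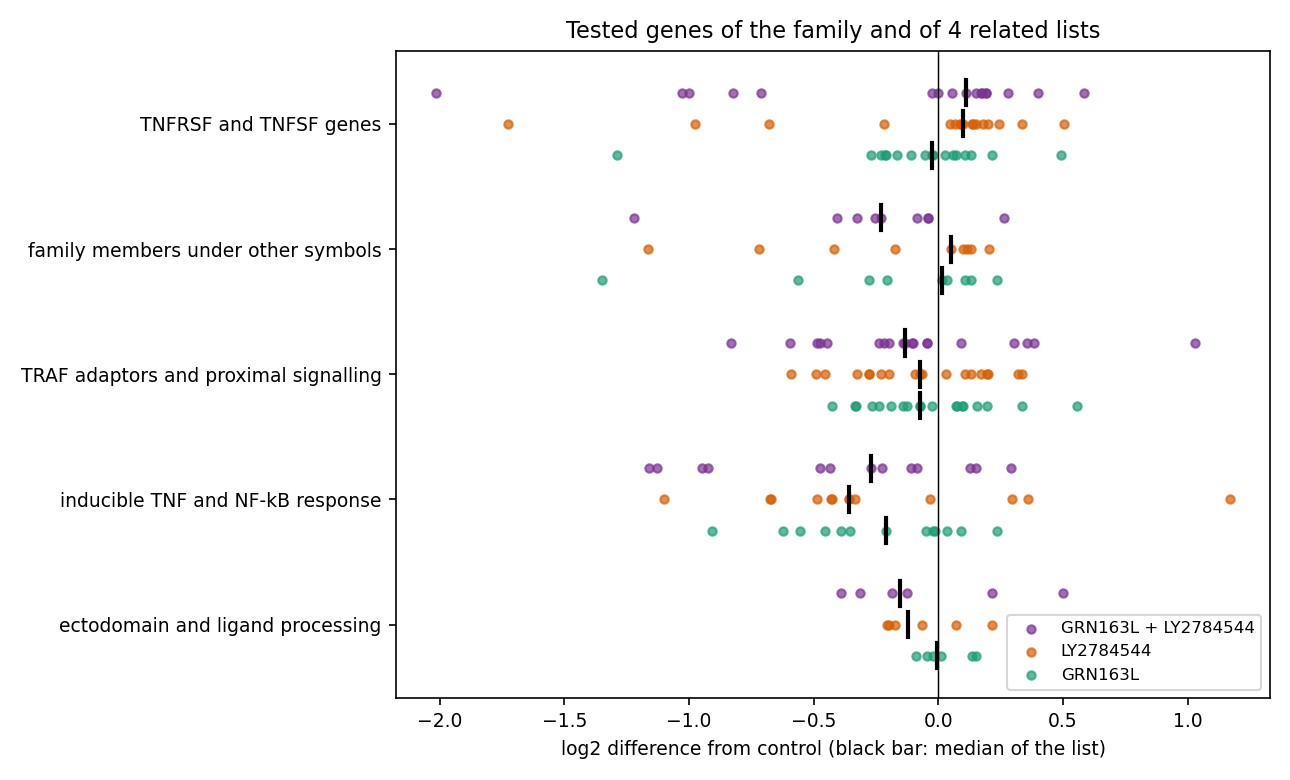
Log2 difference from control (x axis) of each tested gene in the TNFRSF and TNFSF genes and in 4 related lists (rows), coloured by treatment, with a black bar at the list's median. Medians lie between -0.36 and 0.11, and the lowest point of the top row with each treatment is TNFRSF9.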

How the data were processed

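Total RNA of HEL cells (150 ng an array, per the labels' protocols) was measured on 8 Affymetrix arrays. The deposited values are log2 signals made by the authors with RMA in Affymetrix Expression Console, per the submitters' processing notes; program versions and the genome build were not given in the sources used here, nor was it stated if the arrays went through RMA together. RMA shrinks the differences of dim probe sets and pulls all arrays to a similar distribution of signals. The number of arrays limits the precision.

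Of 33297 probe sets, 19181 named 1 gene in GEO's platform annotation, 2055 several and 12061 none, which gave 17958 genes; 19143 of the 1-gene probe sets had their gene number in the RefSeq gene table (GRCh38.p14), and 0 symbols changed. The probe set with the highest mean stood for its gene, and genes with a mean under the 30th percentile were not tested. A model of 4 group means on all 8 arrays was fitted with limma 3.58.1 in R 4.3.3 (4 residual and 4.65 prior degrees of freedom) for 7 contrasts, with Benjamini-Hochberg adjusted p-values over 12570 genes. The procedure was tested on simulated data.

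The labels give the experiment of each array, so replicate numbers pair the arrays. Same-experiment arrays of different groups had deviations from their group means that correlated (r = 0.103 to 0.674 over genes), and a second fit, blocked on experiment, is given where it changes a call. The r was lowest for pairs with control: 0.123 for the combination, 0.192 for LY2784544 and 0.103 for GRN163L. It was highest for the combination with LY2784544 (0.674). The labels say no more of how the 2 experiments differed, so the p-values reflect only the spread seen among these 8 arrays. The members, the gene lists and the tests were chosen with earlier results of these data known. Members named with all values were those called in either fit, the 8 above background with the largest changes from control, and the 6 with the highest control signal; of each list, members called or with the smallest p were named. BAFF, CD40, CFLAR, TNF, TRAF1 and NCAM1 are described in more detail after their values were seen. Olfactory receptors of the OR51, OR52 and OR56 groups were left out of the background level. Alternatives were the block, other filters and scalings, averaging over the probe sets of a gene, a mean-variance trend, a fit on the compared groups only, each array left out, and other background levels.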

Additional observations from a re-analysis of the deposited data

How the results depend on the processing

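Of 116 recomputed counts, 108 equalled the reported count or stayed within 1.5 times of it. Counts of 0 that stayed 0 are among these, and the reported count was 0 in 5 contrasts, so the tally says little about them. With the experiment as a block, the paired analysis, the members called numbered 4 for the combination against control (1 without it), 1 for the combination against LY2784544 and 1 for the combination against GRN163L (0 without it), and it changed no other member's call. With a filter at the 50th percentile TNFRSF9 was not tested, so that the counts for LY2784544 and for the combination against control were 0. An array left out leaves 1 in its group, which is then taken to vary like the other groups. Numbers of members called in those fits are therefore not listed here, and the differences they gave for TNFRSF9 follow.

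The difference of TNFRSF9 from control ranged from -2.125 to -1.905 with the combination and from -1.835 to -1.615 with LY2784544 when arrays were left out. With median normalization it was -1.84 and -1.6225. With GRN163L it was not called under any of 15 alternatives, with adjusted p from 0.0595 to 0.9995; the lowest came from the 2 compared groups alone. Members above background in control numbered 15, and 6 with the 99th percentile of olfactory receptor genes, 18 with the 90th, 15 with the 30th percentile of all genes and 15 to 17 with 1 control array left out. Members near background limit what can be read from small differences.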
